A study of Macaca fascicularis with 11 samples.

Results

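NEFL (ENSMFAG00000031550) and NEFM (ENSMFAG00000044080), 2 of the 19367 genes counted, were followed through every cell class of in vitro cultured cynomolgus macaque embryos profiled by droplet single-cell RNA sequencing. They were chosen because they led the genes of Day 10 cells that carried MESP1 transcripts. Day 10 levels in those cells are therefore what selected the genes, and they are described here without a test. The rule used no level of a later day. Symbols came from the study's supplementary tables, which also cover later days, and the genes were chosen with earlier results of these data known.

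NEFL and NEFM encode the light and the medium subunit of neurofilaments, the intermediate filaments that fill axons and set their calibre. Both are best known as products of differentiated neurons, where they co-assemble with the heavy subunit. MESP1 is a transcription factor switched on in nascent mesoderm as epiblast cells leave the primitive streak. Embryos of these days precede the formation of the neural tube. The genes are next to each other in the RefSeq gene order of the macaque assembly T2T-MFA8v1.1, a build other than the one used for counting.

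The 11 libraries covered Day 10, Day 12 and Day 14 in wild-type embryos (2 libraries each) and ISL1 mutant embryos (1 library for Day 10 and 2 for each later day). A library pooled 1 to 3 embryos, 12 wild-type and 11 mutant in all. Mutant embryos came from zygotes injected with Cas9 and guide RNAs against ISL1, so they carried a mosaic of edited alleles and are labelled hypomorphic. Every embryo was grown from a thawed blastocyst. The tests below measure the spread between these libraries. Counts are of unique molecular identifiers (UMIs), each standing for 1 captured molecule. ISL1 itself was low in the sums over all cells, at 0.901 to 8.38 CPM (UMIs of a gene scaled to 1000000 UMIs in all) in wild-type and 1.42 to 4.67 CPM in mutant libraries. These 3′ counts include transcripts of edited alleles and do not check the genotype. Libraries held 36654977 to 164808415 UMIs, the median cell held 10916 to 142180 across libraries, and 124 cell barcodes occurred in more than 1 library.

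Cells were clustered anew and named from marker genes. Epi-derived-like cells (epiblast and what forms from it) numbered 166 and 237 in the wild-type libraries of Day 10, 14 and 148 in those of Day 12 and 569 and 113 in those of Day 14. The single mutant library of Day 10 held 229. Those of Day 12 held 705 and 282, and those of Day 14 held 301 and 93. Within them a cell with 3 or more MESP1 UMIs was called MESP1-positive and a cell with 0 MESP1-negative. A level in CPM is the UMIs of a gene over all UMIs of the class in a library, and its 95% interval covers counting error only.

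Epi-derived-like cells held most NEFL UMIs in 9 of 11 libraries and most NEFM UMIs in 10 of 11. The share of NEFL UMIs was 81.0% and 88.5% in wild-type Day 10, 49.3% and 32.8% in Day 12 and 80.4% and 70.6% in Day 14. In mutant libraries it ran from 56.6% to 93.6%. NEFM followed, with 41.4% to 97.2% in wild-type and 50.7% to 90.0% in mutant libraries. The wild-type Day 12 libraries had the lowest NEFL shares of all, and ExE-Mech-like cells, described further on, held most of the rest in the second of them.

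At Day 10, NEFL stood at 782 CPM (740 to 826; 1312 UMIs in 21 cells) in MESP1-positive cells of wild-type replicate 1 and at 208 CPM (195 to 221; 1014 UMIs in 39 cells) in replicate 2. The MESP1-negative cells of the same libraries held 169 and 22.8 CPM. The ratio between the classes was 4.63 (4.29 to 5.00) and 9.12 (8.09 to 10.3). NEFM was at 154 CPM (136 to 174) and 97.0 CPM (88.4 to 106) against 61.5 and 14.5. Both genes were thus higher in the MESP1-positive class of each wild-type library, with a larger gap between the libraries for NEFL than for NEFM. The mutant Day 10 library had 2 MESP1-positive cells, 1 of which held 29 of their 30 NEFL UMIs.

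A few cells held most of the Day 10 signal, although NEFL was found in most cells of the class. It was in 19 of 21 MESP1-positive cells of wild-type replicate 1 and in 30 of 39 of replicate 2. Without the highest cell of each the levels were 710 and 168 CPM. The 5 highest MESP1-positive cells held 59.8% and 60.9% of the NEFL UMIs of that class in replicates 1 and 2. The highest mesoderm-like cell of replicate 1 held 416 NEFL UMIs, and the highest NEFM count in a cell was 279. Pooled over the 3 Day 10 libraries, 10 cells with 2 MESP1 UMIs, just outside the threshold, held NEFL at 13.8 CPM. Just inside it, 6 cells with 3 MESP1 UMIs held 414 CPM and 7 cells with 4 held 6.83 CPM. By library, cells with 3 MESP1 UMIs held NEFL at 1740 CPM in wild-type replicate 1 (2 cells), 2.95 CPM in replicate 2 (3 cells) and 703 CPM in the mutant (1 cell). NEFM was at 20.8, 235 and 106 CPM in the pooled cells, so the level near the threshold was set by a few cells.

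A finer grouping placed the Day 10 signal in 1 of the clusters named mesoderm-like. In cluster 6, led by HAND1 and MESP1, NEFL was at 1380 and 259 CPM in the wild-type libraries and at 66.9 CPM in the mutant one. In cluster 4, led by MIXL1, CDX2 and CDX1, it was at 109, 49.9 and 7.21 CPM. NEFM gave 379, 125 and 30.0 CPM in cluster 6 and 36.3, 18.0 and 4.12 CPM in cluster 4. Cluster 6 was above cluster 4 for both genes in all 3 Day 10 libraries. In the mutant library this rested on 1 cell for NEFM, which held 36 of the 39 UMIs, and without it cluster 6 was at 2.38 CPM. These clusters are those of the integrated libraries. Without integration, 18 cells of wild-type replicate 1 and 5 mutant cells of Day 10 formed a cluster led by NEFL, with VIM and NEFM among its leading genes, which stayed unnamed because more of those genes were ExE-Mech than Epi-derived markers.

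MESP1 counts did not mark these cells equally in the 2 wild-type libraries. Among mesoderm-like cells of replicate 1, NEFL was at 823 CPM in MESP1-positive and at 937 CPM in 24 MESP1-negative cells. In replicate 2 the same classes held 229 and 7.58 CPM, the latter from 13 cells. NEFM was at 163 against 340 CPM in replicate 1 and at 107 against 2.84 CPM in replicate 2. In replicate 1, 1 MESP1-negative cell held 416 of the 1109 NEFL UMIs and 1 held 279 of the 402 NEFM UMIs. Without that cell the MESP1-negative level was 639 CPM for NEFL and 113 CPM for NEFM, under the MESP1-positive levels, which were 749 and 138 CPM without their own highest cell. The order of the classes in replicate 1 thus turned on a single cell for each gene.

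**Figure D1:**
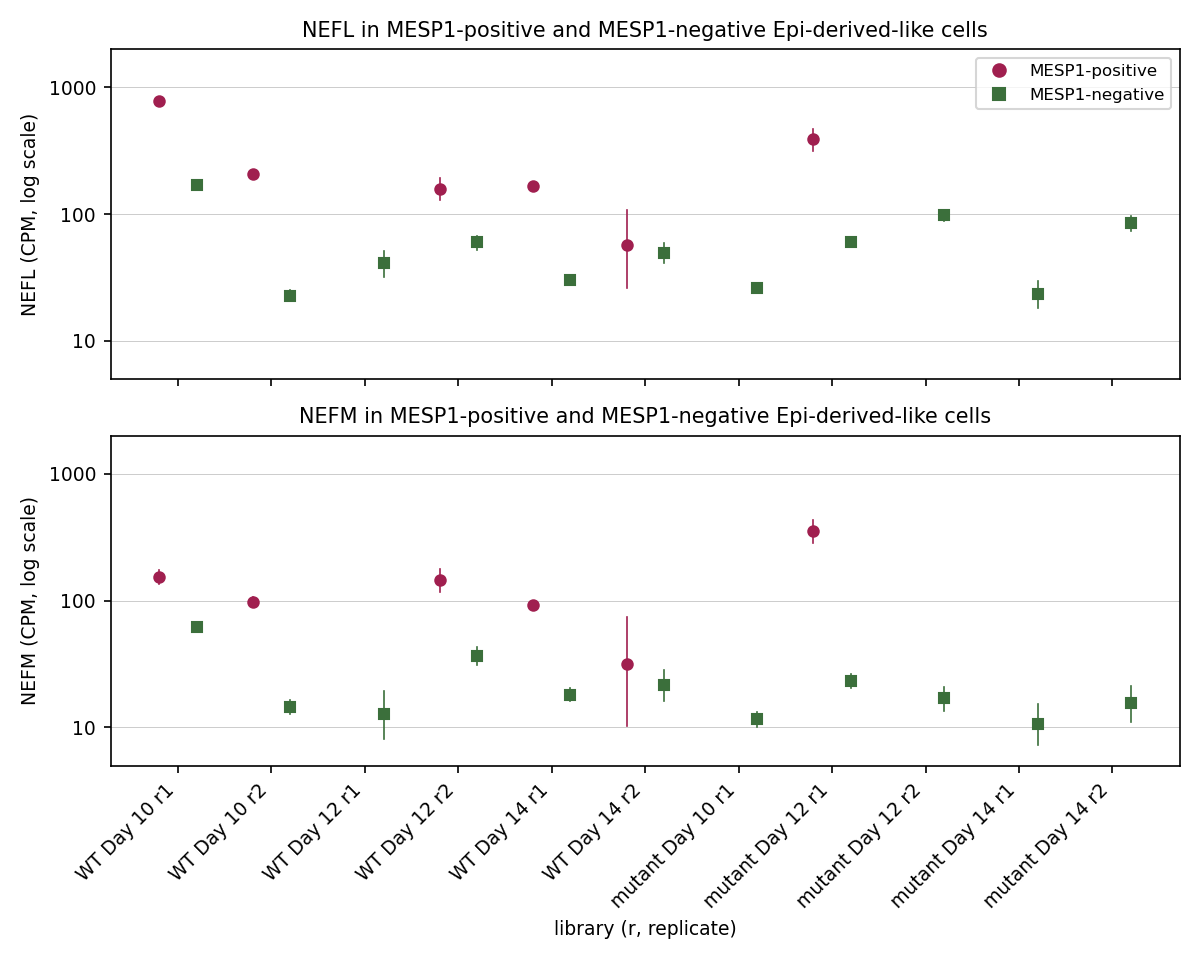
NEFL (top) and NEFM (bottom) in CPM on a log axis, in MESP1-positive (circles) and MESP1-negative (squares) Epi-derived-like cells of each library; bars are 95% intervals for counting error, and classes under 5 cells are not drawn. MESP1-positive cells lie above MESP1-negative cells in every library with both classes drawn, with overlapping intervals in wild-type Day 14 replicate 2 (57.2 against 49.5 CPM for NEFL).

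Day 12 and Day 14 asked whether an association with MESP1 held in libraries whose levels the rule had not used. It did for both genes. The study proposes that the mesodermal-like cells of Day 10 are likely extraembryonic mesoderm, and it reports clusters of embryonic mesoderm at Day 14. MESP1-positive cells of different days may thus be different populations, which was not tested. NEFL was higher in MESP1-positive than in MESP1-negative Epi-derived-like cells by 1.93 on the log2 scale (SE 0.234, 95% interval 1.44 to 2.42, adjusted p = 1.41e-05, edgeR quasi-likelihood test with the library as a block). NEFM was higher by 2.48 (SE 0.280, 1.89 to 3.07, adjusted p = 6.56e-06 in the same edgeR fit). Of 9411 genes tested at a false discovery rate of 1%, 346 were higher (3.68%) and 303 lower (3.22%), 6.9% in all. By fold change, NEFL ranked 120 and NEFM 59 among all tested.

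The 4 libraries with at least 5 cells in both classes were unequal in weight. NEFL in wild-type Day 12 replicate 2 was at 159 CPM (99 UMIs, 18 cells) against 59.8 CPM. In wild-type Day 14 replicate 1 it was at 166 CPM (1337 UMIs, 162 cells) against 30.4 CPM. The mutant Day 12 replicate 1 held 389 CPM (102 UMIs, 15 cells) against 60.2 CPM. These 3 libraries had ratios of 2.65 (2.08 to 3.37), 5.48 (4.94 to 6.08) and 6.46 (5.20 to 7.97). Wild-type Day 14 replicate 2 was apart from them, at 57.2 CPM (9 UMIs, 7 cells) against 49.5 CPM, a ratio of 1.16 (0.516 to 2.27) that its counts cannot tell from 1.

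NEFM showed the same order. Its ratio was 3.95 (3.01 to 5.17) in wild-type Day 12 replicate 2, 5.12 (4.47 to 5.87) in Day 14 replicate 1 and 15.3 (11.9 to 19.4) in mutant Day 12 replicate 1. In wild-type Day 14 replicate 2 it was 1.46 (0.455 to 3.64), from 5 UMIs. In the mutant library 41 of the 93 NEFM UMIs of MESP1-positive cells were in 1 cell, and in wild-type Day 12 replicate 2, 36 of the 99 NEFL UMIs were. In Day 14 replicate 1 the highest cell held 87 of 1337 NEFL UMIs, so there the level was spread over many cells. Without the Epi-derived-like clusters that scored highest for trophoblast, which held 6 MESP1-positive cells of wild-type Day 14 replicate 1, the fold changes were 1.93 and 2.43. Leaving out any 1 library kept both genes past the threshold, with the highest adjusted p at 0.00169 for NEFL (edgeR). Without the library as a block neither gene passed, with an adjusted p of 0.031 for NEFL and 0.0163 for NEFM (edgeR). Without wild-type Day 14 replicate 1 the genes called fell from 649 to 212.

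Thinned to equal depth, the MESP1-positive class also had the larger share of cells with a NEFL UMI in the 4 tested libraries. Median depth was close between the classes in each of the 4 libraries, for example at 32528 against 33083 UMIs in wild-type Day 12 replicate 2 and 42060 against 44256 in Day 14 replicate 1. Thinned to 10000 UMIs per cell, 44.8% and 52.8% of MESP1-positive cells held NEFL there, against 34.5% and 24.0% of MESP1-negative cells. In wild-type Day 14 replicate 2 the thinned shares were 40.1% against 31.9%, and in mutant Day 12 replicate 1 they were 74.2% against 31.0%. Cells too shallow for thinning numbered at most 2 of a MESP1-positive class and at most 77 of a MESP1-negative one. Unthinned, the shares were 61.1%, 75.9%, 57.1% and 86.7% against 66.1%, 56.9%, 52.0% and 40.5%. Wild-type Day 12 replicate 2 thus had the lower share in MESP1-positive cells before thinning, although median depth was close. A thinned share also rises with the UMIs a cell holds. In that library 5 of the 18 MESP1-positive cells held 81 of the 99 NEFL UMIs. Trophoblast-like cells, which should lack both genes, gave thinned NEFL shares of at most 1.94% at Day 10 and 0.447% later, with median depths of 11462 to 143737 UMIs. NEFM thinned shares were 51.6%, 40.4%, 33.2% and 66.5% in MESP1-positive cells against 25.1%, 14.9%, 16.3% and 15.9% in MESP1-negative cells.

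Both genes tended to be found in the same cells. NEFM was detected in 75.0% to 89.5% of the MESP1-positive cells that held NEFL, over the 6 libraries with 5 or more MESP1-positive cells. In the MESP1-positive cells without NEFL the share ran from 0% to 66.7%. Cells holding NEFL were also deeper in 5 of the 6 libraries, for example with 80301 against 51609 median UMIs in wild-type Day 10 replicate 1. Per NEFM UMI, NEFL gave 5.07 and 2.14 UMIs in the Day 10 wild-type libraries and 1.09 to 1.80 in the 4 later ones.

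Cells with 1 or 2 MESP1 UMIs, left out of the test, held NEFL at 57.2, 46.0, 34.7 and 47.3 CPM in the 4 tested libraries, each below the MESP1-positive level of its library. The MESP1-negative levels were 59.8, 30.4, 49.5 and 60.2 CPM in the same order. These cells were thus above MESP1-negative cells only in wild-type Day 14 replicate 1. The comparison was repeated within mesoderm-like cells alone, an alternative chosen after the data were seen. NEFL was higher in MESP1-positive cells by 1.42 (SE 0.199, adjusted p = 4.86e-04, edgeR) and NEFM by 1.57 (SE 0.193, adjusted p = 1.60e-04), with 132 of 6061 genes called. Wild-type Day 14 replicate 2 again gave no separation, with a NEFL ratio of 0.970 (0.419 to 1.99).

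The neighbours of NEFL and NEFM in the gene lists set a scale for this. Of 14 gastrulation mesoderm genes with an identifier, 10 were tested and all 10 were higher in MESP1-positive cells, MESP1 itself being the gate. Their median log2 fold change was 3.80 against -0.02 over all genes. MIXL1, a streak homeobox factor, was higher by 4.40, EOMES, a T-box factor of streak and endoderm, by 3.16, and LHX1 by 5.67. HAS2, which makes hyaluronan, was higher by 1.24. The neurofilament genes thus changed less than the median gene of that list.

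Of 9 intermediate filament genes tested, NEFL, NEFM and VIM, the vimentin of mesenchymal cells, rose. VIM was higher by 1.64 (SE 0.155, adjusted p = 7.78e-07, edgeR). KRT7, a keratin of simple epithelia and amnion, fell by 2.25 (SE 0.318, adjusted p = 7.78e-05). KRT8, KRT18, KRT19, LMNB1 and NES did not pass, with fold changes of 0.50, 0.62, 0.14, 0.48 and -0.13. The median of the list was 0.50. Of the 21 genes of the neuronal list, 2 were matched to an identifier and tested: UCHL1 fell by 0.71 (adjusted p = 0.00446) and MAP1B, at -0.70 (adjusted p = 0.121), did not pass. The list therefore says little about other neuronal genes.

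Some endoderm markers were higher in MESP1-positive cells. In the MESP1-positive sums, 2 of 4 tested endoderm markers, 0 of 5 ExE-Mech (extraembryonic mesenchyme) and 0 of 9 trophoblast markers were higher. SOX17, a transcription factor of endoderm, was higher by 2.42 and SERPINE2, a secreted protease inhibitor, by 2.32, and the median of the 4 was 1.81. The endoderm markers summed to 89.0 to 200.2 CPM in MESP1-positive and 39.4 to 46.0 CPM in MESP1-negative cells, against 50115 CPM or more in endoderm-like cells. Trophoblast markers summed to 81.7 to 851 CPM and 88.3 to 632 CPM. All 9 Epi markers and 3 of 11 amnion markers were lower, and 11 of 11 mesoderm markers were higher. Their part in the result was not tested.

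**Figure D2:**
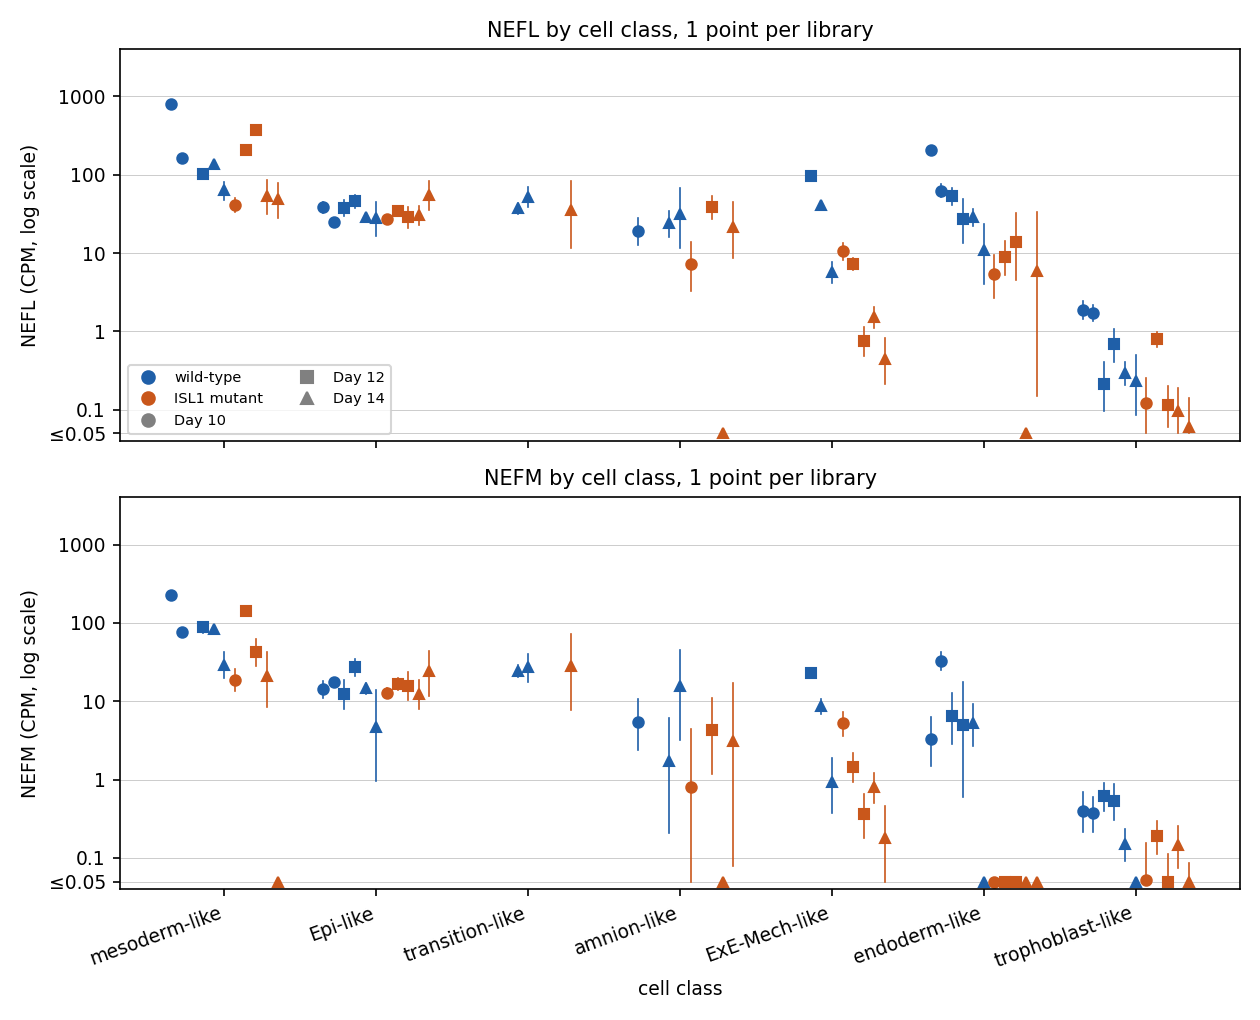
NEFL (top) and NEFM (bottom) in CPM on a log axis by cell class, 1 point per library; colour gives the genotype, shape the day, bars the 95% interval for counting error, and points on the lowest tick are at or under 0.05 CPM. Mesoderm-like cells reach 807 CPM of NEFL at Day 10, Epi-like cells stay between 24.6 and 55.2 CPM, and trophoblast-like cells lie under 2 CPM.

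Across the named classes NEFL was highest in mesoderm-like cells in 9 of the 10 libraries that held 5 or more of them, and NEFM in 8 of 10. The Day 10 libraries among them had a part in choosing the genes, and over Day 12 and Day 14 the counts were 6 and 5 of 7. With the highest cell of each class left out they were 4 and 5 of 7, so some of these ranks turn on 1 cell. Clusters left unnamed were not ranked, although a Day 12 one that scored highest for amnion held NEFL at 104 CPM in wild-type replicate 2. NEFL in mesoderm-like cells of the wild-type embryos was at 807 CPM (775 to 840) and 164 CPM (155 to 175) at Day 10, 102 CPM (87.5 to 117) at Day 12, and 136 CPM (129 to 144) and 63.1 CPM (48.1 to 81.2) at Day 14. Mutant libraries had 41.4 CPM at Day 10, 207 and 369 CPM at Day 12, and 53.8 and 48.9 CPM at Day 14. The mutant Day 12 levels lay above the wild-type one of that day, and the mutant Day 10 level lay below the wild-type ones. At Day 14 the mutant levels lay below, as 22.4% of genes did. The share of all genes with such an order was not taken for the earlier days. With 1 wild-type library at Day 12 and 1 mutant library at Day 10, genotype and library cannot be told apart on those days.

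NEFM in mesoderm-like cells was at 225 and 76.7 CPM in wild-type Day 10, 88.0 CPM in Day 12, and 82.9 and 29.4 CPM in Day 14. Mutant libraries had 18.9 CPM at Day 10, 143 and 42.4 CPM at Day 12, 20.9 CPM from 7 UMIs in Day 14 replicate 1, and 0 of 326922 UMIs in the 7 cells of Day 14 replicate 2. A count of 0 there allows up to 9.18 CPM. The spread among wild-type libraries was thus several-fold for both genes.

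The other Epi-derived-like types are given for NEFL in each library with 5 or more of their cells. NEFL in Epi-like cells stayed between 24.6 and 55.2 CPM over all 11 libraries. At Day 12 the wild-type libraries, at 37.7 and 46.0 CPM, lay above the mutant ones, at 35.0 and 28.6 CPM, as 17.1% of genes did. At Day 14 the mutant libraries, at 30.5 and 55.2 CPM, lay above the wild-type ones, at 29.2 and 28.3 CPM, as 20% of genes did. The closest levels differed little, 37.7 against 35.0 CPM at Day 12 and 30.5 against 29.2 CPM at Day 14. Wild-type Day 12 replicate 1 held 72 UMIs, 27 of them in 1 cell, and mutant Day 14 replicate 1 held 56. Neither order is therefore read as a difference between genotypes. Transition-like cells, named from the study's transition markers and found at Day 14, held 37.3 and 51.9 CPM in wild-type and 35.6 CPM in mutant replicate 1. Amnion-like cells ranged more widely. They held 19.1 CPM in wild-type Day 10 replicate 2 (11 cells), 7.25 CPM in mutant Day 10 (16 cells) and 39.1 CPM in mutant Day 12 replicate 2 (46 cells). At Day 14 they held 24.1 and 31.3 CPM in wild-type, and 0 and 21.6 CPM in the mutant libraries, where a count of 0 allows up to 14.0 CPM. Transition-like cells lay above the Day 14 amnion-like cells in these values, and mesoderm-like cells stood above all 3 types in each wild-type Day 14 library.

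NEFM in amnion-like cells differed between the wild-type Day 14 libraries. Amnion-like cells of Day 14 held 1.72 CPM (2 UMIs) and 15.7 CPM (3 UMIs) in wild-type and at most 1 UMI in the mutant libraries. Over Epi-like cells of the same library the ratio was 0.117 (0.0141 to 0.432) in replicate 1 and 3.32 (0.445 to 24.8) in replicate 2, the latter from 3 UMIs in each class. Epi-like cells held 4.71 to 27.0 CPM and transition-like cells 24.4 to 28.5 CPM. Trophoblast-like cells held 0.0605 to 1.88 CPM of NEFL and 0 to 0.614 CPM of NEFM.

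In wild-type Day 14, mesoderm-like cells exceeded the mean of the other 3 types by 1.71 on the log2 scale for NEFL (SE 0.242, 95% interval 1.18 to 2.24) and by 2.53 for NEFM (SE 0.361, 1.74 to 3.32). Amnion-like cells lay below it by values of -1.03 (SE 0.390) and -2.91 (SE 0.761). The types were clustered from the same cells, so these are descriptions with no test, although neither gene was among the clustering features. For the same reason the SEs and intervals are not read as a test against no difference. Replicates 1 and 2 differed in size: the mesoderm-like difference in log2(CPM + 1) was 2.16 and 0.80 for NEFL and 3.03 and 1.13 for NEFM. The amnion-like difference was -1.11 and -0.52 for NEFL and -3.57 and -0.03 for NEFM, so the fitted NEFM value rests on replicate 1.

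**Figure D3:**
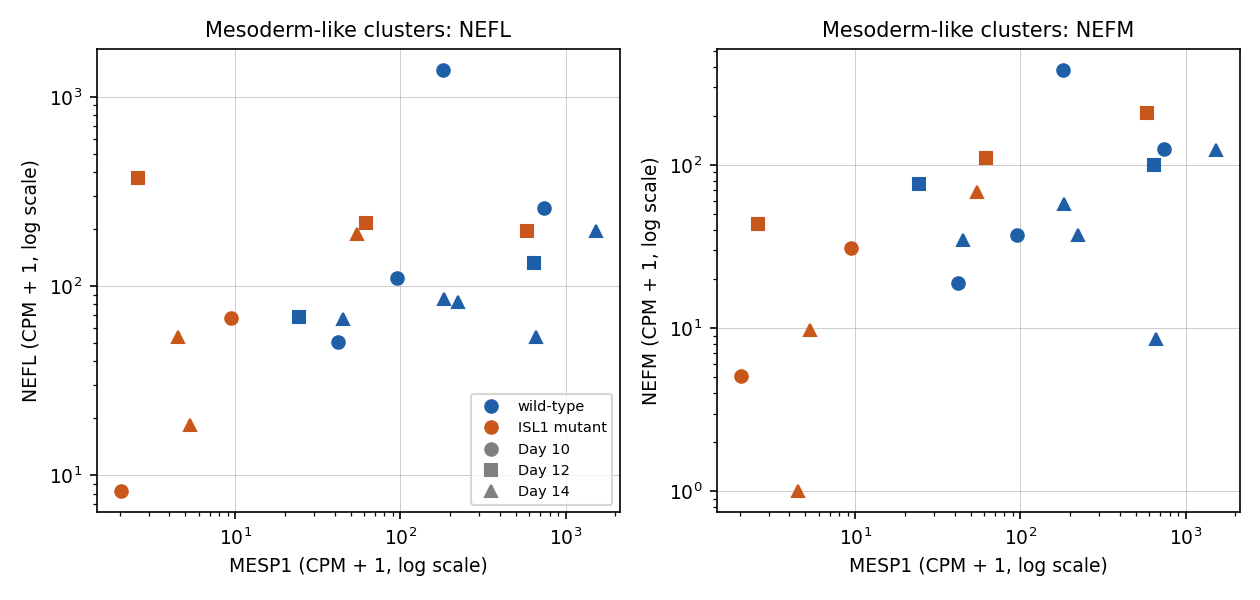
NEFL (left) and NEFM (right) against MESP1 in mesoderm-like clusters, 1 point per cluster and library with 5 or more cells, both axes in CPM + 1 on a log scale; colour gives the genotype and shape the day. A mutant Day 12 point near the left edge had 369 CPM of NEFL with MESP1 at 1.57 CPM, the leftmost point, mutant Day 10, had 7.21 CPM with MESP1 at 1.03 CPM, and the highest point is wild-type Day 10 replicate 1 with 1380 CPM.

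Clusters within the mesoderm-like class showed where level and MESP1 parted. At Day 12 a cluster high in MESP1 (638 CPM in wild-type and 583 CPM in mutant replicate 1) held NEFL at 131 and 194 CPM and NEFM at 99.1 and 208 CPM. The other Day 12 cluster held MESP1 at 23.4, 60.9 and 1.57 CPM and NEFL at 68.0, 214 and 369 CPM in wild-type replicate 2, mutant replicate 1 and mutant replicate 2. All 35 mesoderm-like cells of mutant replicate 2 were in it. They held 235 NEFL UMIs in 26 cells, with 1 MESP1 UMI among them and no MESP1-positive cell. NEFM was at 42.4 CPM in these cells, which gave 8.70 NEFL UMIs per NEFM UMI, above the 1.09 to 5.07 of the MESP1-positive classes. The Day 12 types also depended on the integration. Without it, mesoderm-like clusters held either 69 cells of wild-type replicate 2 alone or 3 and 62 cells of the mutant libraries. A cluster led by PTGR1, HAND1 and MESP1 then scored higher for ExE-Mech (1.65) than for mesoderm (1.24) and stayed unnamed.

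At Day 14 the cluster highest in MESP1 held 99 cells of wild-type replicate 1, with NEFL at 195 CPM and NEFM at 123 CPM. Wild-type replicate 2 had 5 cells there with 53.0 and 7.58 CPM, and mutant replicate 1 had 5 cells with 188 and 67.3 CPM. Most other mutant mesoderm-like cells, 24 of 32 and 6 of 7, fell in a cluster where NEFL was at 17.4 CPM (4 UMIs) and 52.7 CPM, against 84.3 and 66.2 CPM in the wild-type libraries. The counts behind the mutant values were few: in replicate 1, 1 of the 5 cells held all 14 NEFL and all 5 NEFM UMIs, and 1 of the 24 cells held all 4 NEFL UMIs. In replicate 2, 1 of the 6 cells held 10 of the 15 NEFL UMIs, and without it the value was 20.2 CPM.

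The study compared genotypes at Day 14. In Epi-derived-like cells as a whole, NEFL was at 72.3 and 48.8 CPM in wild-type and 27.8 and 89.0 CPM in ISL1 mutant libraries. The mutant libraries lay on both sides of the wild-type ones, and the fitted difference was 0.01 (SE 0.524, 95% interval -1.19 to 1.21, adjusted p = 0.993, edgeR). The high value of mutant replicate 2 came mostly from cluster 10, an unnamed cluster led by CDKN1C, CGA and S100P that scored highest for trophoblast markers, where 22 of its 93 cells held 170 of its 233 NEFL UMIs. In those 22 cells trophoblast markers summed to 363 CPM, against 10197 CPM in the 13 cells of wild-type replicate 1 in that cluster and 5102 CPM in the 13 of mutant replicate 1. Leaving out the clusters that scored highest for trophoblast, an alternative added after the data were seen, put the mutant libraries at 31.1 and 41.0 CPM. Both were then below the wild-type ones at 71.6 and 48.8 CPM. In mutant replicate 2 this took out cells high in NEFL rather than cells rich in trophoblast markers. The trophoblast marker sum of its Epi-derived-like cells rose from 460 to 529 CPM. The fitted difference was then -0.74 (SE 0.347, -1.54 to 0.06) and did not pass (adjusted p = 0.333, edgeR). NEFM was at 41.7 and 21.8 CPM in wild-type and 12.2 and 15.3 CPM in mutant libraries. Its groups did not overlap, a pattern shown by 23.2% of genes, and the difference of -1.22 (SE 0.390, -2.11 to -0.32) did not pass (adjusted p = 0.129, edgeR). Only 4 of 9498 genes (0.0421%) passed in this fit, all higher in the mutant, with 0 lower and 2028 at an unadjusted p under 0.05. With the batch number of the labels as a block, 264 genes were called, NEFL (-0.23) and NEFM (-1.15) not among them. Without wild-type replicate 2, NEFM was at -1.61 (adjusted p = 0.00551), and without mutant replicate 2 NEFL stood at -1.18. Such fits leave 1 library in an arm, which is assumed to vary like the other genotype.

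In mesoderm-like cells of Day 14 the mutant libraries lay below the wild-type ones for both genes, as 22.4% of genes did. The difference was -0.94 for NEFL (SE 0.463, -2.03 to 0.15, adjusted p = 0.518) and -2.45 for NEFM (SE 0.949, -4.68 to -0.22, adjusted p = 0.430) in edgeR. Neither passed, in a fit that called 1 of 5698 genes (0.0176%), or 62 with the batch number as a block, where NEFM was at -2.57 (adjusted p = 0.0590). In mutant replicate 1 the 18 NEFL UMIs of this class lay in 2 of 32 cells, and in replicate 2, 10 of the 16 UMIs lay in 1 of 7 cells. Without the highest cell of each, the 2 libraries were at 12.8 and 20.7 CPM. The class itself rested on the integration of the libraries: clustered without it, the mesoderm-like clusters of Day 14 held 210 and 2 wild-type cells and 1 and 0 mutant cells. Without wild-type replicate 2, NEFM was at -2.98 (adjusted p = 7.99e-04), with 1 wild-type library assumed to vary like the mutant ones, which held 7 and 0 NEFM UMIs. Other markers moved in the same cells. ExE-Mech markers, all 8 with a UMI in each library, summed to 84.8 and 270.2 CPM in wild-type and to 714 and 1346 CPM in mutant libraries, with a median of 2.44 over the 7 tested and 0 passing. Mesoderm markers summed to 2516 and 1740 CPM against 1093 and 673 CPM, with a median of -1.22 over 11 tested and 0 passing. MESP1-positive cells made up 28.5% and 6.19% of wild-type and 0.664% and 2.15% of mutant Epi-derived-like cells of Day 14. The part of these values in the result was not tested. Neither gene had enough counts to be tested in amnion-like cells, where 1 of 3444 genes (0.029%) was called and 0 with the block (242 at an unadjusted p under 0.05).

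At Day 12 the Epi-derived-like levels overlapped. NEFL was at 37.7 and 71.1 CPM in wild-type and 67.1 and 100.5 CPM in mutant libraries, a difference of 0.58 (SE 0.353, -0.26 to 1.43, adjusted p = 0.745, edgeR). NEFM was at 12.6 and 50.8 CPM against 31.3 and 17.2 CPM, a difference of -0.41 (SE 0.589, -1.82 to 1.00, adjusted p = 0.903, edgeR). The fit called 1 of 10601 genes (0.00943%), and 10 with the block. The intervals at both days include changes of more than 2-fold in NEFM. In data simulated on the Day 14 comparison, 0 of 100 genes changed 2-fold and 29 of 100 changed 4-fold were called. The simulation gave every gene the same set spread, so these are not the rates for NEFL or NEFM.

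**Figure D4:**
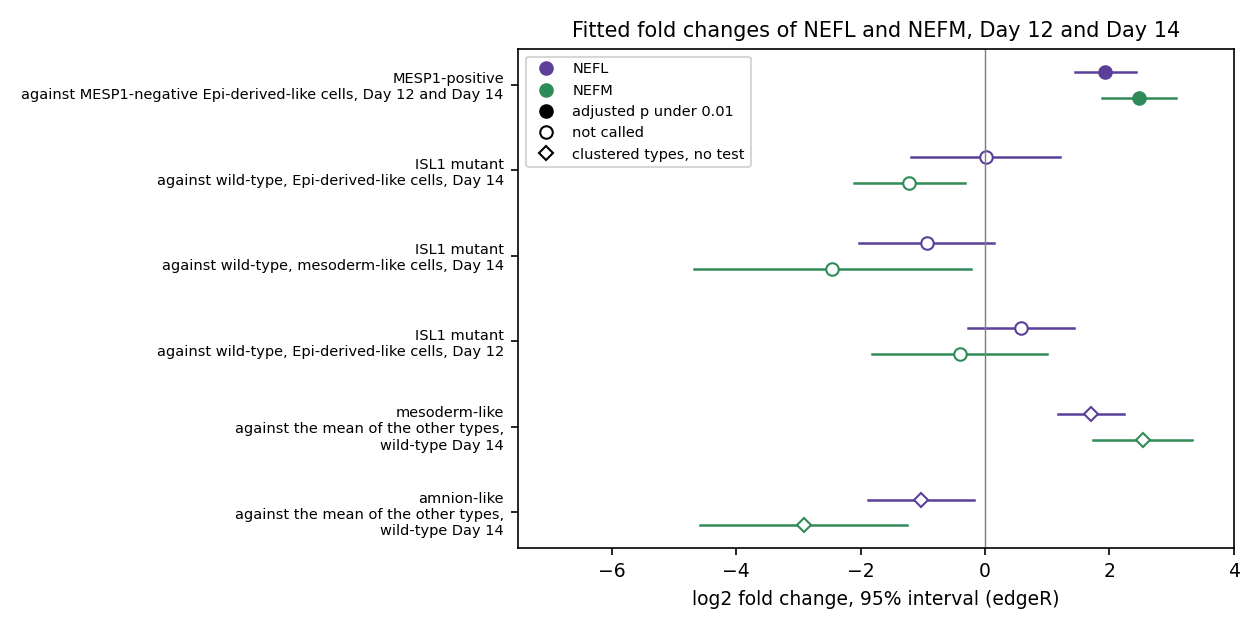
Fitted log2 fold changes of NEFL (purple) and NEFM (green) with 95% intervals from edgeR in each comparison of Day 12 and Day 14; filled circles passed an adjusted p of 0.01, open circles did not, and diamonds are differences between clustered types given with no test. Of the tested comparisons, the MESP1 one, at 1.93 and 2.48, passed for both genes and the others for neither.

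Outside the Epi-derived-like cells, NEFL was highest in extraembryonic mesenchyme and endoderm of wild-type embryos. ExE-Mech-like cells of wild-type Day 12 replicate 2 held 97.3 CPM (90.5 to 105; 745 UMIs, 62.0% of 200 cells). Wild-type Day 14 libraries held 41.4 CPM (37.4 to 45.9) and 5.65 CPM (4.09 to 7.61). Mutant libraries held 7.25 and 0.761 CPM at Day 12 and 1.54 and 0.449 CPM at Day 14, after 10.5 CPM at Day 10. On each of the later days every wild-type library was above every mutant one, while wild-type Day 14 replicate 2 was below mutant Day 12 replicate 1.

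This pattern was singled out after its values were seen and carries no test. Wild-type above mutant without overlap on both days was shown by 11.7% of 12206 genes, NEFM included. A gap of more than 3-fold on both days, a size set after seeing NEFL, was shown by 10 genes (0.0819%), NEFL among them, and in the other direction by 102 genes (0.836%). NEFM was at 23.0, 8.64 and 0.920 CPM in the wild-type libraries and at 1.45, 0.364, 0.805 and 0.180 CPM in the mutant ones, so its Day 14 groups came close. At Day 14 each genotype had a library of each batch number, and NEFL was higher in the wild-type library under either number. It is not stated outright that equal numbers mark a shared batch, and the genotypes share no embryo. At Day 12, 1 wild-type library held such cells, so genotype and library cannot be told apart there. Thinned to 10000 UMIs, 38.2%, 18.5% and 4.83% of wild-type ExE-Mech-like cells and 0.354% to 4.88% of mutant ones held NEFL (unthinned 62.0%, 39.8% and 9.14%, and 0.651% to 8.29%).

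**Figure D5:**
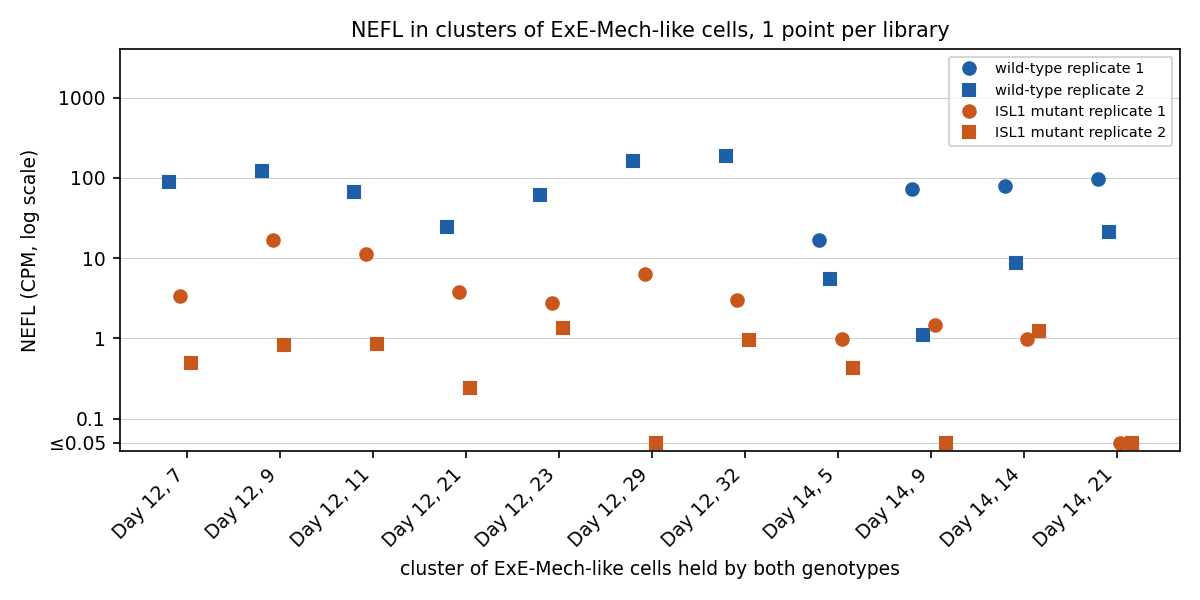
NEFL in CPM on a log axis in each cluster of ExE-Mech-like cells that held both genotypes (day and cluster number on the horizontal axis), 1 point per library; colour gives the genotype, shape the replicate, and points on the lowest tick are at or under 0.05 CPM. Wild-type libraries lie above the mutant ones in 7 of 7 Day 12 clusters and 3 of 4 Day 14 clusters.

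The NEFL difference was found in most clusters and the NEFM one in fewer. A library was counted in a cluster if it had 5 or more cells there. For NEFL, in 7 of 7 Day 12 clusters holding both genotypes the wild-type library, at 24.7 to 189 CPM, was above both mutant libraries, at 0 to 16.8 CPM. At Day 14 this held in 3 of 4 clusters. In the other, cluster 9, wild-type replicate 2 was at 1.09 CPM and mutant replicate 1 at 1.46 CPM. For NEFM the wild-type libraries were above the mutant ones in 5 of 7 clusters at Day 12 and 1 of 4 at Day 14. Epi-derived markers summed to 606, 240 and 235 CPM in the wild-type Day 12 and Day 14 libraries and to 329, 218, 190 and 154 CPM in the mutant ones, and ExE-Mech markers to 5319, 3868 and 6778 against 4072 to 10576 CPM. The part of these sums in the result was not tested.

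Endoderm-like cells held NEFL with little NEFM. NEFL was at 207 CPM (190 to 224; 562 UMIs in 30 of 44 cells) and 62.9 CPM in wild-type Day 10, 53.2 and 27.2 CPM in Day 12, and 28.6 and 10.8 CPM in Day 14. Mutant libraries held 5.35 CPM at Day 10, 8.94 and 13.9 CPM at Day 12, and 0 and 5.93 CPM at Day 14, the last 2 from 0 and 1 UMI. The share of all genes with wild-type above mutant in endoderm-like cells was not taken. NEFM gave 9 UMIs (3.31 CPM) in wild-type Day 10 replicate 1, and in replicate 2 all 59 of its UMIs came from 1 cell. No NEFM UMI was found in endoderm-like cells of the 5 mutant libraries or of wild-type Day 14 replicate 2 (35 cells). Wild-type Day 12 replicate 2 held 2, both in 1 cell. Markers of Epi-derived cells summed to 1169 and 795 CPM in the Day 10 wild-type endoderm-like cells, above the 231 to 578 CPM of the later wild-type libraries.

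Across 61 library-by-type sums NEFL and NEFM had a Pearson correlation of log2(CPM + 1) of 0.85, and across the 46 sums of Day 12 and Day 14, which leave out the day that chose the genes, also of 0.85. After NEFM, the symbols most like NEFL were FOXH1 (0.84), a forkhead partner of SMAD proteins in nodal signalling, HACD1 (0.80), SERINC3 (0.79), WNT5B (0.78) and CD70 (0.76). After NEFL, those most like NEFM were DENR (0.82), FGF4 (0.79), EPHA1 (0.77), AP3B2 (0.76) and HMGB3 (0.76). Over the later days alone, FOXH1 was at 0.83 with NEFL and DENR at 0.86 with NEFM. Of the 16809 genes compared, the 1008 with a symbol could be named. Sums of 1 library share its embryos and depth, so these are descriptions.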

How the data were processed

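Per the labels and the study's methods, reads were aligned and counted by the authors with Cell Ranger 3.1.0 against Macaca_fascicularis_5.0 (Ensembl annotation). Genes had to occur in 3 or more cells, cells were filtered by mitochondrial content and by how many genes they expressed, and SoupX subtracted ambient RNA, set on choriogonadotropin in POU5F1-positive cells. The deposited corrected matrix holds expected counts, all whole numbers here, and the deposited uncorrected matrix holds counts. The correction removed 0.196% to 8.77% of the UMIs of a library, at most 0.685% of NEFL and 1.69% of NEFM. The 33330 cells in both matrices were used, and 209 cells of the uncorrected one alone were left out. The files carry Ensembl identifiers. Symbols for 1016 genes came from the pairs in the study's supplementary tables, which leaves most of the neuronal list and several filament genes unmatched.

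Members and gene lists were chosen with earlier results of these data known. Named were NEFL, NEFM, the fixed lists and the 5 symbols most like each gene. Cells of each day were integrated and clustered with Seurat 5.3.0 without NEFL, NEFM or the other listed genes that are no markers. Clusters were named from the fixed markers by a score threshold set after the clusters were seen, so types may differ from those of the study. No doublet caller was run, and leaving out the 5% of cells with most UMIs was tried instead. UMIs were summed per library and class (5 or more cells) and tested with edgeR 4.0.16 (R 4.3.3; TMM scaling, genes kept by filterByExpr, two-sided quasi-likelihood F test with Benjamini-Hochberg adjustment over all genes tested and a false discovery rate of 1%), with DESeq2 1.42.0 as an alternative. Libraries were the replicates, and their numbers are the labels' batch numbers. The study gives 2 collection batches for its Day 14 embryos of both genotypes. That equal numbers mark a shared batch is not stated outright, so the block is an alternative, printed beside the genotype results. Fixed comparisons of 1 clustered type with the rest were fitted as planned, and their fold changes are given without a test, since the types come from the same cells. Intervals of CPM levels, shares and class ratios are exact at 95%. Those of fold changes are approximate, from a t quantile and an SE worked back from the F statistic. In data simulated on the MESP1 comparison (9369 genes), 7 of 100 genes changed 2-fold and 87 of 100 changed 4-fold were recovered, with 1 false call. Both simulations drew every gene at the same set spread, with no library effect beyond depth, and changed no gene of few counts. Of the RefSeq gene table only names and gene order were used, and no sequence.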

Additional observations from a re-analysis of the deposited data

How the results depend on the processing

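Of 129 recomputed fold changes of NEFL and NEFM, 109 kept direction and side of the threshold. The 129 include those of the clustered types, which are given elsewhere without a test. All 156 CPM values moved by less than their counting error with uncorrected counts. The MESP1 comparison kept both genes past the threshold in every alternative except without the library as a replicate block, where NEFL was at 1.89 (adjusted p = 0.031) and NEFM at 2.57 (adjusted p = 0.0163, edgeR) and 97 genes were called. Leaving out a library in turn gave 1.67 to 2.14 for NEFL, 1.98 to 2.65 for NEFM and 212 to 669 genes called, against 649. With no filter 1188 were called (553 higher), with 1 MESP1 UMI as the threshold 209, and within mesoderm-like cells, added later, 132.

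Genotype at Day 14 in Epi-derived-like cells called 4 genes, against 283 with DESeq2, 758 with no filter, 2 without the deepest cells, 0 without integration (1572 at an unadjusted p under 0.05), 264 with the replicate block and 4 to 386 leaving out a library. NEFL, near 0 at first, was at -0.00393 with uncorrected counts, -0.0260 with no filter, -0.25 without the deepest cells, -0.74 without the clusters that scored highest for trophoblast (added later) and -0.23 with the replicate block, and between -1.18 and 0.67 leaving out a library, being -0.27 without wild-type replicate 2. NEFM passed at -1.25 with no filter (adjusted p = 0.00692, edgeR) and at -1.61 without wild-type replicate 2, over a leave-one-out range of -1.61 to -0.60.

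In mesoderm-like cells 1 gene called became 52 with DESeq2, 169 with no filter, 62 with the replicate block and 0 to 99 leaving out a library (0 without either mutant library, with 1082 and 437 genes at an unadjusted p under 0.05). NEFM was at -2.65 with no filter (adjusted p = 7.22e-04) and -2.98 without wild-type replicate 2 (adjusted p = 7.99e-04, edgeR). Leaving out a library gave -10.76 to -1.60, of which the lowest, without mutant replicate 1, is set against a library at 0 and has no meaning as a size. In amnion-like cells 1 became 2 with uncorrected counts, 3 with DESeq2 size factors, 8 with DESeq2, 72 with no filter, 0 without the deepest cells (333 unadjusted), 0 with the replicate block (242 unadjusted), and 2 to 58 leaving out a library. At Day 12, 1 became 30 with DESeq2, 245 with no filter, 10 with the replicate block and 0 to 7 leaving out a library (0, with 1891 unadjusted, without wild-type replicate 2, where NEFM turned to 0.82, in a range from -0.99).

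The types of wild-type Day 14 were clustered from the cells compared, so counts of genes past the threshold are no evidence of a difference there. They are given only to show how the fits moved with the processing. Mesoderm-like cells gave 173 genes past the threshold of 7609 fitted. The count was 568 with no filter, 6 with no replicate block and 405 with other lineages added. NEFL was at 1.60 and NEFM at 2.37 without the block, and NEFM was at 2.20 by DESeq2. Amnion-like cells gave 690, 1364, 131 and 281 in the same order. Their NEFL was at -1.14 and NEFM at -3.03 with no filter, and NEFL was at 0.49 against the other lineages. Fits of these types without a library, and of mesoderm-like and amnion-like genotype comparisons without integration, could not be made. The causes were not tested.

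The labels number the libraries of each genotype as batches, and it is not stated outright that equal numbers of the genotypes are the same batch. Deviations of same-numbered libraries correlated by 0.0009 in Epi-derived-like, 0.12 in mesoderm-like and -0.16 in amnion-like cells at Day 14 and by 0.18 at Day 12, and the replicate block changed no call of NEFL or NEFM between genotypes. Crossed numbers in amnion-like cells, tried after the data were seen, gave 4 genes.

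The main limits are few libraries (1 or 2 a group, 1 to 3 pooled embryos each), classes down to 5 cells, and depth. Shares of cells with a UMI moved with depth, 92 of 156 by more than their counting error when cells were thinned. Mutant Day 14 replicate 1 had the shallowest Epi-derived-like cells, at a median of 8331 UMIs, so values near 0 there are limits of detection. Single cells with up to 416 NEFL UMIs set several levels.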

Other observations

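Epi-derived-like clusters that the marker lists left unnamed also held NEFL, in some libraries with little MESP1. At Day 12 an unnamed cluster held NEFL at 104 CPM in wild-type replicate 2 and at 123 and 118 CPM in the mutant libraries, with MESP1 at 2.09 to 6.28 CPM. This cluster scored highest for amnion (1.02), with ExE-Mech at 0.937 and mesoderm at 0.826, too close for a name. NEFM there was at 64.2 CPM in the wild-type library and at 14.6 and 12.6 CPM in the mutant ones. At Day 14 the unnamed cluster that scored highest for trophoblast markers held NEFL at 157 CPM (170 UMIs, in 19 of 22 cells) and NEFM at 26.8 CPM in mutant replicate 2, with MESP1 at 1.85 CPM. In wild-type replicate 1 the same cluster held NEFL at 89.3 CPM with MESP1 at 322 CPM and 6 MESP1-positive cells, and in mutant replicate 1 it held 0 NEFL among 198160 UMIs. These clusters were picked after their values were seen and are given as values only.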
